A study of Saccharomyces cerevisiae with 9 samples.

Results

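The genes described here make and recycle purines in budding yeast: 7 genes of the de novo route to inosine monophosphate (IMP), 1 gene of the branch from IMP to adenosine monophosphate (AMP), the adenine deaminase gene AAH1 and the regulator gene BAS1. They were found by gene symbol in the annotation of the array, with the probe set of the highest mean where a gene had several. Of the 10 listed genes 9 had a named probe set, 1 each, among 5311 genes (5359 probe sets) tested in all. BAS1 was not among the named probe sets and is not analysed here.

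Yeast builds IMP on phosphoribosyl pyrophosphate (PRPP) in a chain of enzymes encoded by ADE genes, then turns it into AMP or guanosine monophosphate (GMP). Free bases can be salvaged instead, by attaching them to PRPP. The ADE genes are switched on by the transcription factors Bas1 and Pho2 when purines are short and are low when adenine is plentiful, and AAH1 is known as a gene of growing cells that is shut off as they enter quiescence. In AMP synthesis Ade12 and Ade13 act one after the other on IMP, and Ade13 also works within the chain that makes IMP.

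Total RNA of the strain SK1, a laboratory yeast known for rapid sporulation, was hybridised to Affymetrix yeast arrays, 1 array per sample. Wild-type cells (WT) and cells labelled ime4-/- (ime4), which lack the RNA N6-adenosine methyltransferase gene IME4, were taken while growing in rich medium (YPD) or 4 h after the move to sporulation medium (SPO, potassium acetate). There were 2 arrays of WT in YPD, 3 of WT in SPO, 2 of ime4 in YPD and 2 of ime4 in SPO. The series describes them as biological replicates, and the p-values measure the spread between them. The sources used here do not give mating type, ploidy, auxotrophies or how much of IME4 was deleted.

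All values below are log2 of the deposited intensity, and a difference of 1 is a 2-fold difference. The background of an array was the 95th percentile of its named probe sets whose gene is not in the gene table of Saccharomyces cerevisiae (the array also carries another yeast species), at log2 3.01 to 3.25. Between 96.3% and 98.2% of all tested sets were brighter. The 9 measured genes lay between 5.60 and 12.09 on every array, so all were well above background. Within a group their SD was between 0.00144 and 0.150, and the arrays of a group never lay more than 0.212 apart. The number of arrays limits the precision. Levels of different genes come from different probes and are not compared. WT arrays had IME4 at 5.35 ± 0.00250 (YPD, SD, n = 2) and 7.12 ± 0.0203 (SPO, SD, n = 3). The ime4 arrays had it at 2.36 ± 0.0991 (YPD, SD, n = 2) and 2.34 ± 0.282 (SPO, SD, n = 2), below background on every ime4 array.

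The first question was how these genes respond when cells leave rich medium for acetate. All 9 were lower in SPO than in YPD in WT, by 1.84-fold (ADE12) to 14.9-fold (AAH1), and all 9 were lower in ime4, by 1.92-fold (ADE2) to 9.27-fold (AAH1). A gene is said to rise or fall here when limma's test, fitted to all 9 arrays and adjusted by Benjamini-Hochberg over the 5359 sets, gave an adjusted p under 0.05. By that rule 43.1% of all tested sets fell in WT and 42% fell in ime4, so falling was common. At least 2-fold, 8 of the 9 genes fell in each genotype, where 21.1% of all sets did so in WT and 16.2% in ime4. The median difference over the 9 genes was -2.01 in WT and -1.54 in ime4, against 0.05 and 0.04 over all tested sets.

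ADE4 (YMR300C) encodes the amidotransferase that commits PRPP to purine synthesis. It read 9.76 and 9.77 in WT in YPD and 6.76, 6.62 and 6.62 in WT in SPO. In ime4 it read 9.78 and 9.57 in YPD and 7.26 and 7.22 in SPO. Both SPO groups lay far below both YPD groups, and the ime4 SPO arrays lay above the WT SPO arrays. ADE4 fell by 3.09 in WT (SE 0.0694, limma adjusted p = 7.46e-11) and fell by 2.44 in ime4 (SE 0.0760, adjusted p = 1.52e-09), the steepest fall among the ADE genes in both genotypes. In WT it was left with 11.7% of its YPD level, and only 98 of the 5359 sets had a more negative difference.

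ADE8 (YDR408C), whose product adds the first formyl group of the ring, read 10.42 and 10.42 in WT in YPD and 9.36, 9.39 and 9.33 in WT in SPO. The ime4 arrays read 10.32 and 10.38 in YPD and 9.17 and 9.22 in SPO. The YPD groups lay close together, and the SPO arrays of ime4 were slightly below those of WT. ADE8 fell by 1.06 in WT (SE 0.0446, adjusted p = 6.14e-09) and fell by 1.15 in ime4 (SE 0.0488, adjusted p = 1.15e-08), among the shallower falls of the chain.

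ADE6 (YGR061C) encodes the synthetase that acts on the formylated intermediate. Its values were 11.27 and 11.25 in WT in YPD, and 9.07, 9.18 and 9.09 in WT in SPO. In ime4 they were 11.05 and 11.10 in YPD and 9.47 and 9.55 in SPO. The ime4 arrays were thus lower than WT in YPD and higher than WT in SPO, with no overlap in either medium. ADE6 fell by 2.15 in WT (SE 0.0505, adjusted p = 1.01e-10) and fell by 1.56 in ime4 (SE 0.0553, adjusted p = 3.57e-09).

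ADE2 (YOR128C) encodes the carboxylase whose loss turns yeast colonies red. It read 10.38 and 10.27 in WT in YPD and 9.08, 9.06 and 9.01 in WT in SPO, and 10.38 and 10.32 (YPD) and 9.35 and 9.47 (SPO) in ime4. In YPD the genotypes overlapped, and in SPO they did not. ADE2 fell by 1.27 in WT (SE 0.0557, adjusted p = 8.59e-09) and fell by 0.94 in ime4 (SE 0.0610, adjusted p = 2.61e-07), where 52.2% of the YPD level remained.

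ADE1 (YAR015W) encodes the enzyme of the next step, which joins aspartate to the product of Ade2. Its arrays read 10.39 and 10.42 in WT in YPD and 8.24, 8.17 and 8.13 in WT in SPO. In ime4 they read 10.88 and 10.91 in YPD and 9.35 and 9.36 in SPO. In both media every ime4 array was above every WT array. ADE1 fell by 2.23 in WT (SE 0.0469, adjusted p = 5.16e-11) and fell by 1.54 in ime4 (SE 0.0514, adjusted p = 2.47e-09).

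ADE13 (YLR359W) encodes adenylosuccinate lyase, used once on the way to IMP and again on the way to AMP. It read 11.17 and 11.27 in WT in YPD, and 9.48, 9.60 and 9.60 in WT in SPO. In ime4 it read 11.24 and 11.28 in YPD and 10.16 and 10.32 in SPO. The genotypes overlapped in YPD, and the SPO arrays of ime4 were the higher ones. ADE13 fell by 1.66 in WT (SE 0.0633, adjusted p = 3.00e-09) and fell by 1.02 in ime4 (SE 0.0693, adjusted p = 3.58e-07).

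ADE17 (YMR120C) encodes an isozyme of the bifunctional enzyme that closes the ring to IMP. Its values were 11.77 and 11.76 in WT in YPD, and 9.85, 9.70 and 9.72 in WT in SPO. The ime4 arrays gave 12.09 and 12.01 in YPD and 9.94 and 9.99 in SPO. ADE17 lay a little higher in ime4 in both media. It fell by 2.01 in WT (SE 0.0561, adjusted p = 3.25e-10) and fell by 2.09 in ime4 (SE 0.0614, adjusted p = 1.04e-09).

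ADE12 (YNL220W) encodes adenylosuccinate synthase, which opens the AMP branch. It read 10.55 and 10.46 in WT in YPD and 9.65, 9.58 and 9.65 in WT in SPO, and 10.52 and 10.37 (YPD) and 9.21 and 9.20 (SPO) in ime4. The YPD groups overlapped, and the ime4 SPO arrays were the lowest. ADE12 fell by 0.88 in WT (SE 0.0561, adjusted p = 1.61e-07), less than any other of the 9 genes there, and by 1.24 in ime4 (SE 0.0615, adjusted p = 3.52e-08).

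AAH1 (YNL141W) encodes adenine deaminase, which turns adenine into hypoxanthine and so opens the salvage route from adenine to IMP. It read 9.62 and 9.57 in WT in YPD and 5.60, 5.77 and 5.72 in WT in SPO. In ime4 it read 9.90 and 9.89 in YPD and 6.59 and 6.76 in SPO. Every ime4 array was above every WT array of the same medium. AAH1 fell by 3.90 in WT (SE 0.0660, adjusted p = 1.38e-11), to 6.71% of its YPD level, and fell by 3.21 in ime4 (SE 0.0723, adjusted p = 2.22e-10), to 10.8%. Of the 5359 sets 10 had a more negative difference in WT and 3 in ime4.

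**Figure D1:**
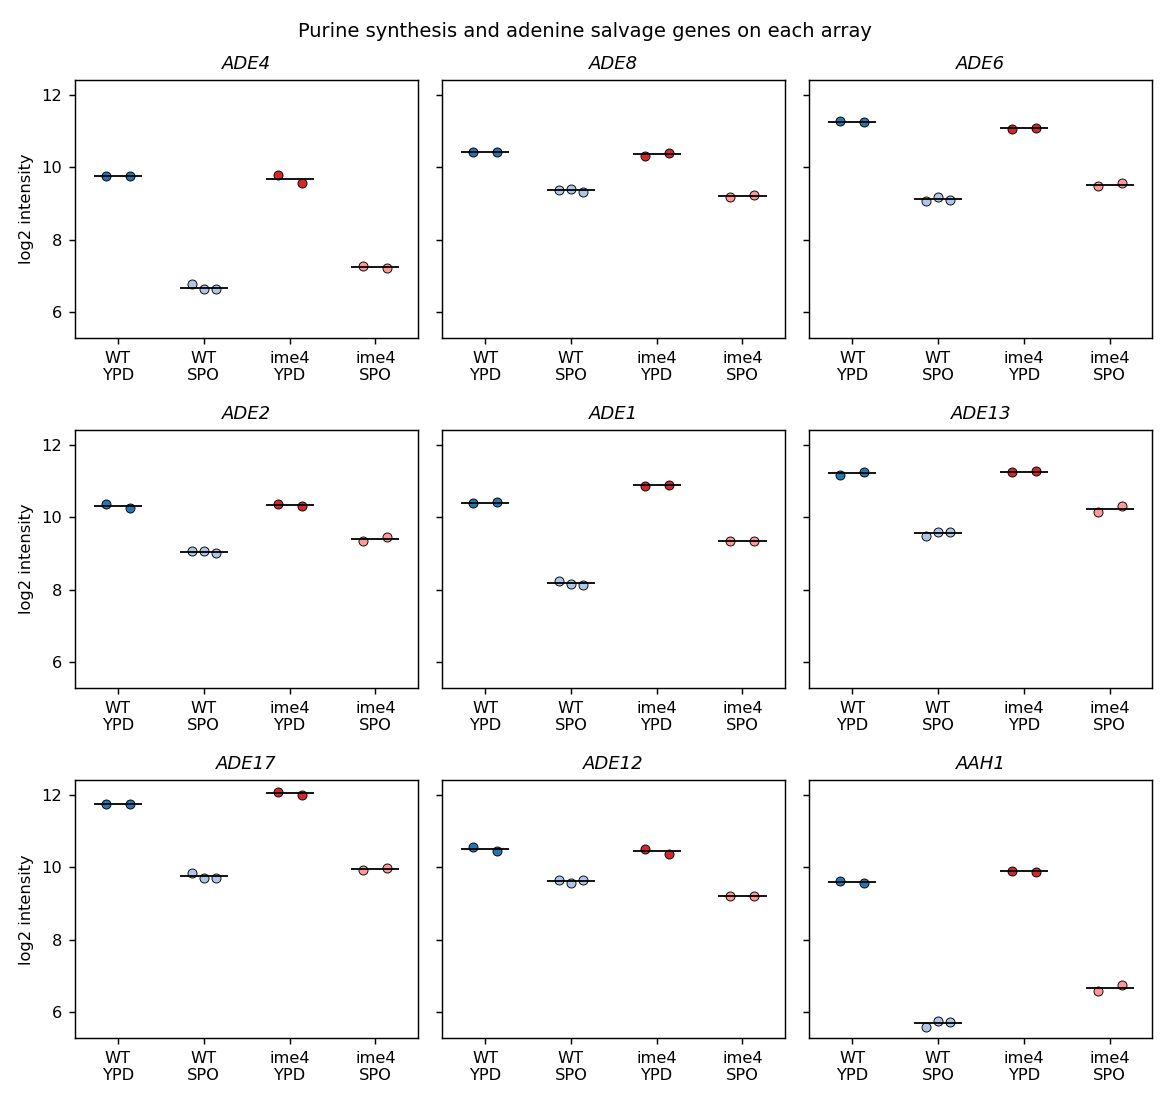
Log2 intensity of the 9 measured genes on each of the 9 arrays, with genotype and medium on the horizontal axis; points are arrays and bars are group means. In every panel both SPO groups lie below both YPD groups, with the widest gap for AAH1 (from 9.59 to 5.69 in WT) and the narrowest in WT for ADE12 (from 10.51 to 9.63).

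The next question was whether the response differed between the genotypes, tested as the interaction of genotype and medium. For 6 of the 9 genes the interaction was positive past the threshold, which for a falling gene is a smaller fall in ime4, for 1 it was negative, and for ADE8 and ADE17 it did not pass. Over all tested sets 29.5% passed with a positive and 34.6% with a negative interaction. These shares pool falling and rising sets, and for a rising set a smaller response is a negative value. Responses of at least 2-fold were fewer in ime4 in both directions over all sets. In WT 1133 sets fell and 1183 rose that far, and in ime4 868 fell and 922 rose. Smaller responses in ime4 were thus not particular to these genes. The positive values were 0.69 for ADE1 (SE 0.0696, limma adjusted p = 2.66e-05), 0.69 for AAH1 (SE 0.0980, adjusted p = 0.000239), 0.66 for ADE4 (SE 0.103, adjusted p = 0.000428), 0.63 for ADE13 (SE 0.0939, adjusted p = 0.000300), 0.59 for ADE6 (SE 0.0749, adjusted p = 0.000115) and 0.33 for ADE2 (SE 0.0826, adjusted p = 0.00610). On the log2 scale the fall of these genes in ime4 was 61.7% (ADE13) to 82.4% (AAH1) of the fall in WT.

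ADE12 went the other way. Its interaction was -0.36 (SE 0.0833, adjusted p = 0.00415), and its fall in ime4 was 141% of that in WT. ADE12 and ADE13, whose products both act in AMP synthesis, showed opposite interactions of their transcripts, negative for ADE12 and positive for ADE13. Ade13 also works within the chain that makes IMP. For ADE8 the interaction was -0.09 (95% confidence interval -0.24 to 0.06, adjusted p = 0.248) and for ADE17 -0.08 (-0.27 to 0.11, adjusted p = 0.413). Their upper bounds lie below the 0.33 to 0.69 measured for the 6 genes with a positive interaction. The count of 7 passing genes was the same with any of the 9 arrays left out.

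**Figure D2:**
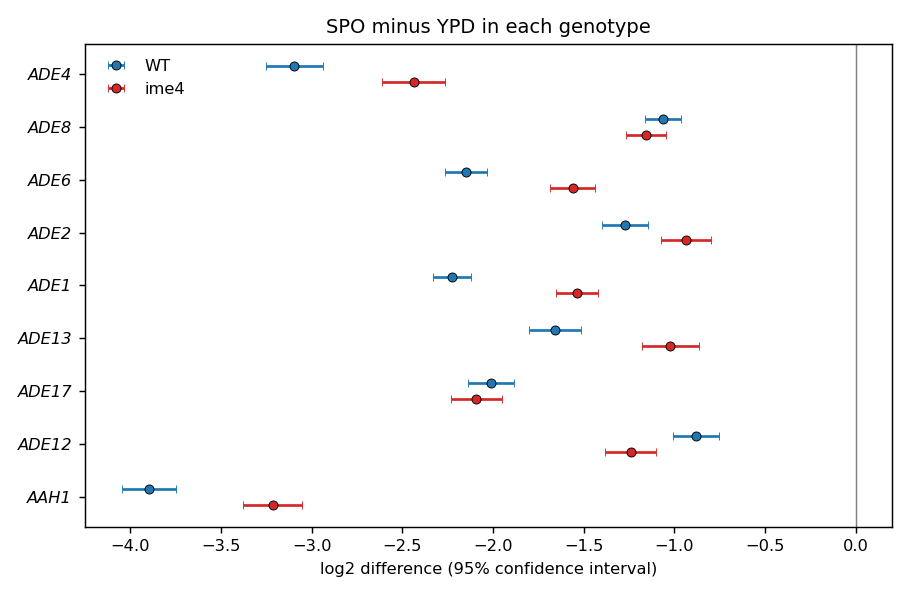
Log2 difference between SPO and YPD for the 9 genes in WT (blue) and ime4 (red), in pathway order from ADE4 down to AAH1; points are fitted differences and bars are 95% confidence intervals. All points lie left of 0, the red points lie right of the blue ones for 6 genes, and for ADE12 the order is turned (-0.88 in WT, -1.24 in ime4).

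The same 4 groups were also compared between genotypes within a medium. These comparisons use the arrays of the medium responses again, so they are another view of the same values. The genotypes differed in mating-type transcripts on every array. The 6 markers of a cells were all above background on every WT array, with summed intensities of 2762 to 3611, while in ime4 the sums were 86.5 to 161 and HMRA1 and AGA2 were at background on at least 1 array in each medium (in YPD also STE2 and MFA2). The 5 measured markers of alpha cells, of 6 listed, summed to 275 to 347.5 in WT and to 1859 to 7098 in ime4, and each was above background on every array. The 4 markers of meiotic entry (IME1, IME2, RIM4 and SLZ1) also differed in SPO. Their sums there were 1023.8 to 1062.6 in WT and 449.5 to 478.4 in ime4. In YPD the sums were 104.6 to 109.1 in WT and 114.4 to 121.6 in ime4. Loss of IME4, this mating-type pattern and the lower meiotic entry markers cannot be told apart. The part of any of them in the interactions or in the differences below was not tested.

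In SPO, 7 of the 9 genes were higher in ime4 than in WT and 2 were lower, where 34.1% of all tested sets were higher and 39.4% lower. The median difference of the 9 genes was 0.40, against -0.04 over all sets. ADE1 was 2.26-fold higher (1.18, SE 0.0469, limma adjusted p = 4.96e-08), the 1 gene of the 9 that differed at least 2-fold, as did 5.71% of all sets in that direction. AAH1 was 1.98-fold higher (0.98, SE 0.0660, adjusted p = 1.04e-06), ADE13 1.60-fold (0.68, SE 0.0633, adjusted p = 9.12e-06) and ADE4 1.48-fold (0.57, SE 0.0694, adjusted p = 5.50e-05). ADE6 (0.40, adjusted p = 6.70e-05) and ADE2 (0.36, adjusted p = 0.000287) differed by less.

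ADE17 was 1.15-fold higher in SPO (0.21, SE 0.0561, adjusted p = 0.00826), a call lost without ime4 replicate 2 in SPO (adjusted p = 0.0563). ADE12 was lower, at 74.5% of the WT level (-0.42, SE 0.0561, adjusted p = 9.91e-05). ADE8 was also lower, at 89.4% (-0.16, SE 0.0446, adjusted p = 0.00873), a call lost without ime4 replicate 1 in SPO (adjusted p = 0.0615). The intervals of ADE12 (-0.55 to -0.30) and ADE1 (1.07 to 1.28) did not overlap.

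In YPD the genotypes differed less. Of the 9 genes 3 were higher in ime4 and 1 was lower, and 5 did not pass, where 21.3% of all tested sets were higher and 18.7% lower. ADE1 was 1.40-fold higher (0.49, SE 0.0514, limma adjusted p = 0.000109), AAH1 1.23-fold (0.30, SE 0.0723, adjusted p = 0.0103) and ADE17 1.22-fold (0.29, SE 0.0614, adjusted p = 0.00545). ADE6 was lower, at 88.1% of WT (-0.18, SE 0.0553, adjusted p = 0.0267). The ADE6 call was lost with quantile normalization (adjusted p = 0.102) and without any of the 4 YPD arrays (0.0612 to 0.123), and the AAH1 call without WT replicate 2 in YPD (adjusted p = 0.0526), where 2 of the 9 genes passed.

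ADE2, ADE4, ADE8, ADE12 and ADE13 stood between -0.09 and 0.04 in YPD. The 95% intervals of these genes together ran from -0.26 (ADE4) to 0.20 (ADE13). ADE4, ADE2, ADE13 and ADE12 had overlapping arrays between the genotypes there.

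**Figure D3:**
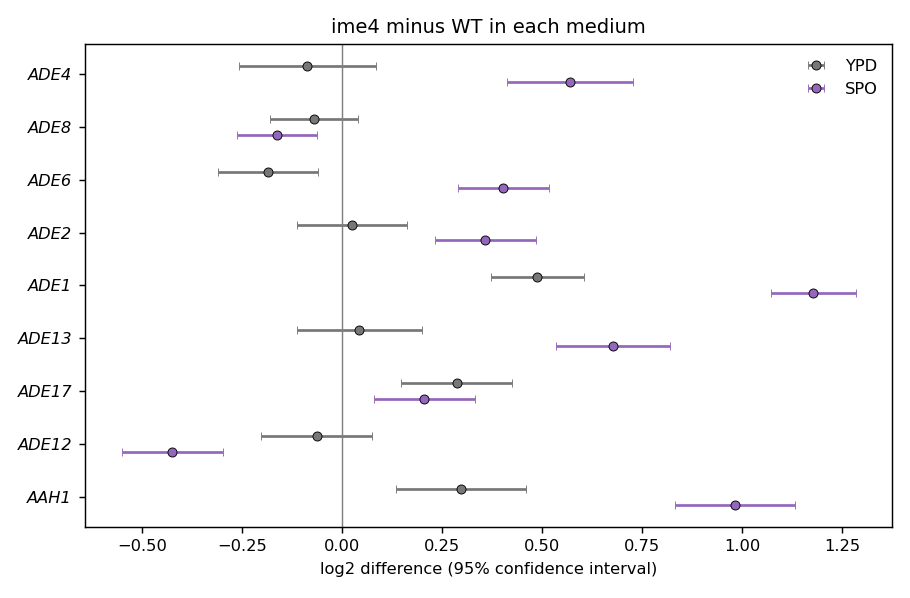
Log2 difference between ime4 and WT for the 9 genes in YPD (grey) and SPO (purple); points are fitted differences and bars are 95% confidence intervals. In SPO the points run from -0.42 (ADE12) to 1.18 (ADE1), and in YPD from -0.18 (ADE6) to 0.49 (ADE1).

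Around these 9 genes, 41 of 43 other genes of purine metabolism and its supply were measured, in lists of the remaining IMP synthesis genes, GMP synthesis, salvage, uptake, regulators, PRPP, glycine and one-carbon supply, histidine synthesis and nucleotide kinases. ADE5,7 and APT2 had no named probe set and are not analysed here. In WT 30 of the 41 fell and 9 rose, where 43.1% of all tested sets fell and 46.9% rose. In ime4 29 fell and 8 rose, where 42% of all sets fell and 44% rose. In SPO 24 were higher and 12 lower in ime4, against 34.1% and 39.4% of all sets. In YPD 10 were higher and 5 lower and 26 did not pass, against 21.3% higher and 18.7% lower of all sets.

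The isozyme pair of the last steps of IMP synthesis split. ADE16, the paralogue of ADE17, read 9.81 and 9.78 in WT in YPD and 10.42, 10.42 and 10.38 in WT in SPO, and 9.97 and 9.86 (YPD) and 10.01 and 10.10 (SPO) in ime4. ADE16 was the 1 measured IMP synthesis gene of 8 that was higher in SPO, the other 7 being lower. ADE16 rose by 0.61 in WT (SE 0.0513, adjusted p = 1.43e-06) while ADE17 fell by 2.01. In ime4 its rise was 0.14 (SE 0.0562, adjusted p = 0.0392), a call lost with arrays centred on their median (adjusted p = 0.130) and without any of 4 single arrays (0.0517 to 0.251), and its interaction was -0.47 (SE 0.0761, adjusted p = 0.000525).

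GMP synthesis showed the same kind of split. IMP dehydrogenase, the entry enzyme to GMP, is encoded by IMD2, IMD3 and IMD4, and GMP synthase by GUA1. IMD2 read 6.65 and 6.62 in WT in YPD and 8.46, 8.34 and 8.48 in WT in SPO. It rose by 1.79 there (SE 0.0510, adjusted p = 3.69e-10), and rose by 0.94 in ime4 (adjusted p = 1.36e-07). The name of its probe set marks probes shared with other sequences, so its signal may include related genes. IMD3 fell by 1.59 in WT (adjusted p = 4.25e-10) and fell by 1.26 in ime4 (adjusted p = 8.45e-09), and IMD4 fell by 3.58 (adjusted p = 2.04e-11) and fell by 2.58 (adjusted p = 6.92e-10).

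GUA1 read 11.21 and 11.18 in WT in YPD and between 7.93 and 8.06 on the 3 arrays of WT in SPO, and 11.35 and 11.28 (YPD) and 9.27 and 9.38 (SPO) in ime4. Its SPO arrays were far higher in ime4 than in WT. GUA1 was 2.51-fold higher in ime4 in SPO (1.33, SE 0.0557, adjusted p = 6.62e-08), and IMD4 2.13-fold (1.09, SE 0.0650, adjusted p = 4.81e-07). IMD3 was 1.25-fold higher there (adjusted p = 0.000167), and IMD2 was lower, at 73.6% of WT (adjusted p = 3.81e-05). In YPD, IMD2 was 1.33-fold higher in ime4 (adjusted p = 0.000490), and IMD3, IMD4 and GUA1 stood at -0.01, 0.09 and 0.12 and did not pass.

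Of the phosphoribosyltransferases that attach salvaged bases to PRPP, APT1 and HPT1 fell by more than 2-fold in both genotypes and XPT1 by less. APT1, which uses adenine, read 11.70 and 11.64 in WT in YPD and 7.97, 7.93 and 8.01 in WT in SPO, and fell by 3.70 (SE 0.0441, adjusted p = 2.63e-12). HPT1, which uses the hypoxanthine that Aah1 makes, and guanine, fell by 3.36 in WT (SE 0.0456, adjusted p = 4.87e-12). In ime4, APT1 fell by 2.68 (adjusted p = 5.92e-11) and HPT1 fell by 2.92 (adjusted p = 4.31e-11). In SPO, APT1 was 1.75-fold (adjusted p = 2.89e-07) and HPT1 1.32-fold (adjusted p = 3.56e-05) higher in ime4. In YPD, APT1 was lower in ime4 (-0.20, adjusted p = 0.00887), a call lost without WT replicate 1 in YPD (adjusted p = 0.0564), and HPT1 did not pass (-0.04). XPT1, which uses xanthine and is named after its values were seen, fell by 0.32 in WT (adjusted p = 0.000204) and fell by 0.45 in ime4 (adjusted p = 3.29e-05). Of the 9 measured salvage and interconversion genes, AAH1 included, 7 fell and 2 rose in WT, where 43.1% of all sets fell and 46.9% rose. In ime4 7 fell and 1 rose, where 42% of all sets fell and 44% rose.

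SAF1 encodes the F-box protein that is known to mark the Aah1 enzyme for destruction as cells become quiescent. Its transcript read 6.12 and 6.05 in WT in YPD and 8.26, 8.17 and 8.18 in WT in SPO, and 6.22 and 6.18 (YPD) and 7.27 and 7.31 (SPO) in ime4. The order of the SPO groups was that of AAH1 turned around, with WT above ime4. SAF1 rose by 2.12 in WT (SE 0.0486, adjusted p = 8.56e-11) and by 1.09 in ime4 (SE 0.0533, adjusted p = 3.18e-08), and its interaction was -1.03 (SE 0.0722, adjusted p = 3.20e-06). In SPO it was lower in ime4, at 53.0% of WT (adjusted p = 2.56e-07), and in YPD it did not pass (0.11, adjusted p = 0.118). These are transcript levels, and the Aah1 protein was not measured.

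PHO2 encodes the partner of Bas1 at ADE promoters. It read 6.21 and 6.11 in WT in YPD and 7.28, 7.33 and 7.27 in WT in SPO. It rose by 1.13 (SE 0.0827, adjusted p = 4.77e-07). In ime4 it rose by 0.72 (SE 0.0906, adjusted p = 3.82e-05), and in SPO it was lower in ime4 (-0.31, adjusted p = 0.00713), a call lost without ime4 replicate 1 in SPO (adjusted p = 0.0796). GCN4, the activator of amino acid synthesis, whose protein binds a sequence close to that of Bas1, rose by 0.30 in WT (adjusted p = 0.000107) and stood at 0.06 in ime4 (adjusted p = 0.266), where quantile normalization gave 0.38 (adjusted p = 3.04e-05).

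**Figure D4:**
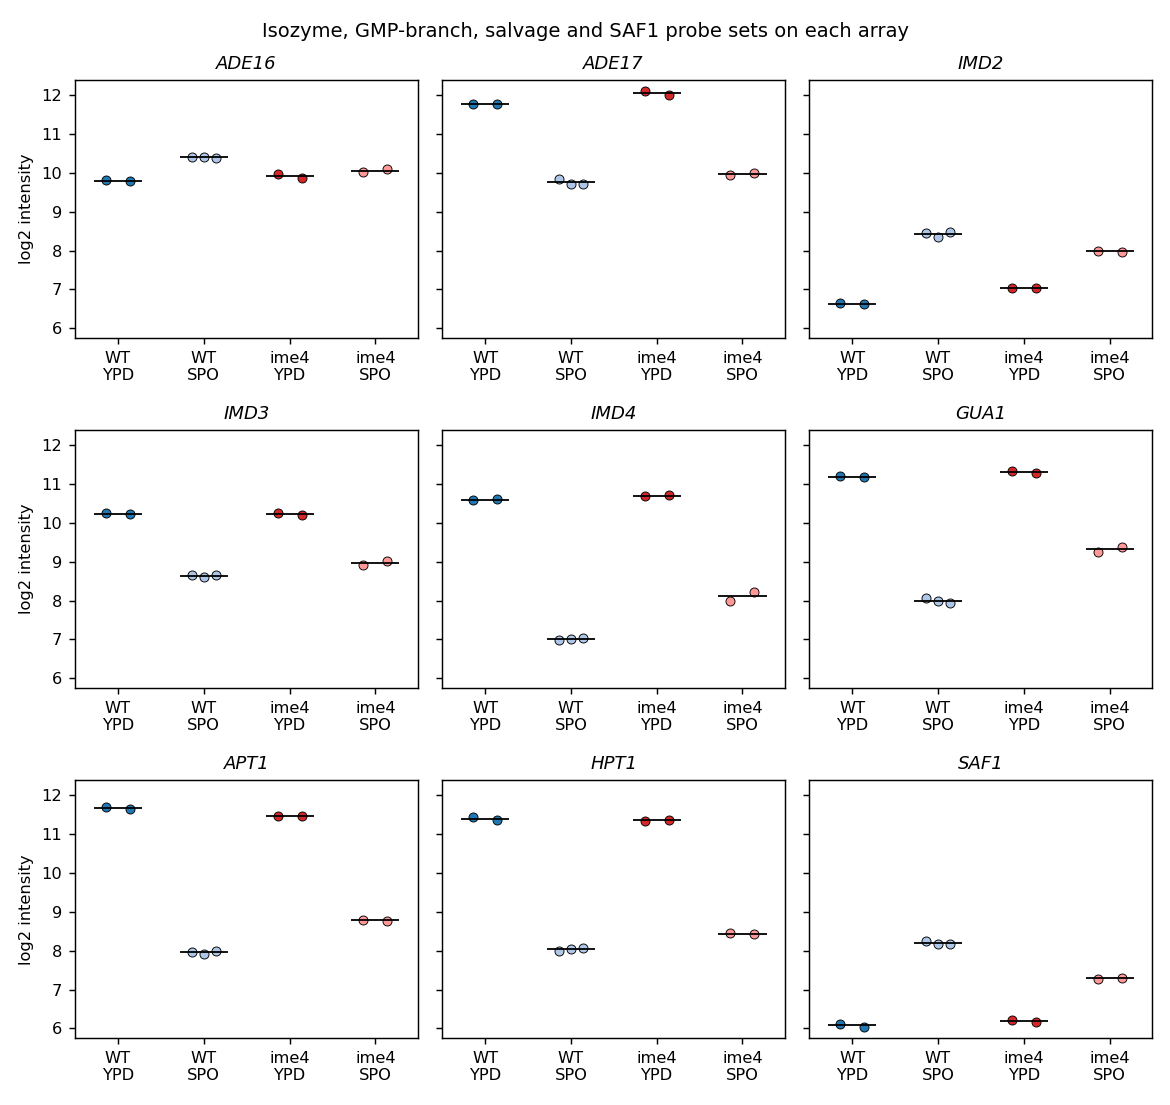
Log2 intensity of ADE16 and ADE17, the IMP dehydrogenase genes, GUA1, APT1, HPT1 and SAF1 on each of the 9 arrays; points are arrays and bars are group means. ADE16, IMD2 and SAF1 are higher in SPO than in YPD (SAF1 6.08 against 8.21 in WT), and the other 6 are lower.

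Transcripts of genes that supply PRPP and one-carbon units were also measured. All 5 PRPP synthetase genes fell in both genotypes (medians -1.82 in WT and -1.25 in ime4), where 43.1% and 42% of all sets fell, and PRS3 fell by 2.38 in WT (adjusted p = 1.00e-10). In SPO 4 of the 5 were higher in ime4 and 1 was lower, against 34.1% and 39.4% of all sets, and PRS3 was 2.02-fold higher (adjusted p = 3.05e-07). All 8 genes of glycine and one-carbon metabolism fell in WT and 7 of 8 fell in ime4, beside the same 43.1% and 42%. MIS1, a mitochondrial enzyme of folate-bound one-carbon units, fell by 3.32 in WT (adjusted p = 7.55e-12) and fell by 2.22 in ime4 (adjusted p = 3.50e-10), and was 2.36-fold higher in ime4 in SPO (adjusted p = 5.37e-08). ADE3, its cytosolic counterpart, was lower in ime4 in YPD (-0.48, adjusted p = 0.000179), as was GCV2 of glycine cleavage (-0.35, adjusted p = 0.00200). In SPO both were higher in ime4, ADE3 by 0.41 (adjusted p = 5.35e-05) and GCV2 by 0.31 (adjusted p = 0.000902).

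FCY2, the purine and cytosine permease gene, fell by 2.40 in WT (adjusted p = 3.45e-10) and fell by 2.48 in ime4 (adjusted p = 1.15e-09). It was 1.29-fold higher in ime4 in YPD (adjusted p = 0.00438) and 1.21-fold higher in SPO (adjusted p = 0.00446). Of 13 pyrimidine genes, measured for comparison, 7 fell, 4 rose and 2 did not pass in WT, with a median of -0.28, where 43.1% of all sets fell and 46.9% rose. URA7, which makes CTP, fell by 4.21 in WT (adjusted p = 7.06e-11). URA1 of pyrimidine synthesis was lower in ime4, with -1.64 in YPD (adjusted p = 3.92e-08) and -4.11 in SPO (adjusted p = 4.15e-11), which none of the 9 purine genes matched in size. The difference between these lists was not tested.

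Similarity of pattern was measured as the root mean square distance over the 9 arrays, after each probe set was centred on its own mean. The nearest to AAH1 were RPS9A (0.104), RPS0B (0.115), RPS0A (0.118), RPL6B (0.126) and RPL13A (0.131), all ribosomal protein genes. In WT, RPS9A went from 9.81 to 5.92 between YPD and SPO and AAH1 from 9.59 to 5.69. In ime4, RPS9A went from 9.92 to 6.97 and AAH1 from 9.89 to 6.68. Several of these genes have a near-identical paralogue whose RNA their probes may also read. Among the 8 ADE genes of the member list, ADE4 was the nearest to AAH1 (0.470) and ADE12 the farthest (1.41).

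The mean profile of these 8 ADE genes was nearest to ERP1 (0.0578), HRI1 (0.0594), TRM7 (0.0601), IMG1 (0.0607) and COA3 (0.0627). TRM7, a tRNA methyltransferase gene, went from 8.13 to 6.24 in WT and from 8.13 to 6.66 in ime4. AAH1 lay 1.01 from that mean profile, farther than 59.0% of tested sets. All these distances are descriptions over 9 arrays that share the same change of medium.

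**Figure D5:**
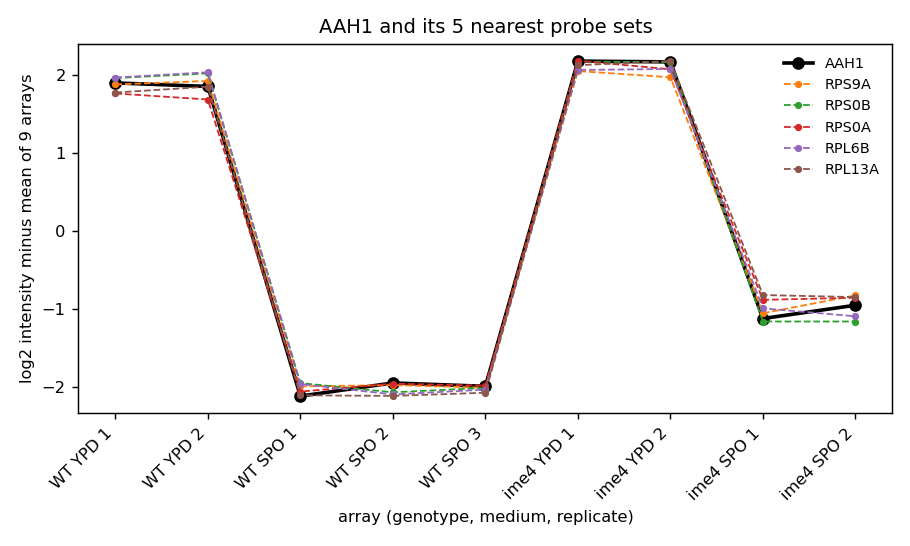
Log2 intensity minus the mean of the 9 arrays (vertical axis) for AAH1 (black) and its 5 nearest probe sets (coloured) on each array (horizontal axis; lines join the arrays of a gene for legibility). All 6 are highest in YPD, lowest in WT in SPO and intermediate in ime4 in SPO, with distances to AAH1 of 0.104 to 0.131.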

How the data were processed

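Affymetrix yeast arrays measured total RNA in 9 samples of 4 groups. The authors deposited linear intensity values, 1 per probe set and array. The submitters' processing notes name RMA as the method; its software and settings are not given in the sources used here. Where RMA equalises the distributions of arrays, it hides a change common to all transcripts. Over the tested sets the deposited arrays did not share a common distribution. Their log2 medians ran from 7.73 (WT replicate 2 in YPD) to 7.86 (WT replicate 2 in SPO). The tested sets are part of the 9676 probe sets, so their medians cannot show whether whole arrays were equalised. Quantile normalization moved the median response to SPO by -0.07 in WT and by -0.09 in ime4. How far a common change is hidden in these values was not tested. The log2 was taken with no offset. Of 9676 probe sets, 5359 had 1 Saccharomyces cerevisiae gene in the array annotation and the R64 gene table and were tested; named sets with a gene outside that table gave the background. Group means were fitted to all arrays by lmFit and eBayes of limma 3.58.1 under R 4.3.3 (two-sided, Benjamini-Hochberg adjustment, threshold 0.05), after a test on simulated data. Members and lists were chosen with earlier results of these data known. All members and 10 listed pathway genes were named, with up to 4 further purine and 2 pyrimidine genes per contrast by smallest p. XPT1, and further contrasts of FCY2, ADE3 and GCV2, were added after their values were seen. AMD1 was also named outside this choice. Alternatives were quantile normalization, median centring, leaving out the dimmest 25%, an intensity trend, the replicate block, only the groups compared, and each array left out.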

Additional observations from a re-analysis of the deposited data

Results flagged for a closer look

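Each value here is a genotype by medium interaction past limma's adjusted threshold, that is, a response to SPO that differed between ime4 and WT on the log2 scale (the response in ime4 minus that in WT). Among the purine synthesis and adenine salvage genes it was 0.69 for ADE1, 0.69 for AAH1, 0.66 for ADE4, 0.63 for ADE13, 0.59 for ADE6, 0.33 for ADE2 and -0.36 for ADE12. Of the 41 other purine genes measured, 17 passed with a positive and 10 with a negative interaction. Over all tested sets 29.5% and 34.6% did so. Only the genes named by the choice described above are given here, so the list is not complete. AMD1, not among them, fell by 0.49 in WT and by more in ime4 (0.93). Of the named genes that fell in WT, values were 1.21 for GUA1, 1.10 for MIS1, 1.02 for APT1 and 1.01 for HIS1. Also among them was HIS4 at 0.97, which fell by 0.71 in WT and rose by 0.26 in ime4. IMD4 stood at 1.00, HPT1 at 0.44 and IMD3 at 0.34. Among those that rose in WT it was -1.49 for ADK2, -1.03 for SAF1, -0.85 for IMD2, -0.47 for ADE16, -0.41 for PHO2 (not past the threshold without any of 3 single arrays) and -0.24 for GCN4. Of the pyrimidine genes, URA1 stood at -2.46 and URA8 at -0.81.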

How the results depend on the processing

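The counts of the 9 genes passing were unchanged under every alternative run for the medium responses (9 and 9) and the interaction (7). In SPO between genotypes 8 to 9 passed with an array left out, and in YPD 2 to 4, with 2 when WT replicate 2 was left out; such a fit leaves 1 array in a group, assumed to vary like the others. Same-numbered arrays of different groups deviated from their group means with r of -0.020 to 0.031 over 12 pairs. No strong shared deviation was thus seen over all tested sets. Whether same-numbered samples were paired cannot be decided this way, because in a group of 2 arrays the deviations mirror each other. No member's call was gained or lost under the replicate block. It moved the other purine genes called in YPD from 15 to 12 and lost the rise of ADE16 in ime4 (adjusted p = 0.0685), as did the fit to only the groups compared (0.0946). With 1 probe set per gene no other probe set could be tried, and for the interaction the fit to the groups compared is the fit to all arrays. Centring moved the median WT response by -0.10. Signs turned only in YPD between genotypes, for genes that did not pass: ADE2 to -0.013 with quantile normalization. With an array left out, ADE2 ranged from -0.028 to 0.079, ADE4 from -0.19 to 0.019, ADE13 from -0.0043 to 0.092, ADE12 from -0.14 to 0.0090, IMD3 from -0.041 to 0.011 and PHO2 from -0.029 to 0.22. The cause was not tested.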

Other observations

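Histidine synthesis starts from PRPP and adenosine triphosphate and gives back an intermediate of IMP synthesis, and several HIS genes are known targets of Bas1. Of 4 such genes, 3 fell in WT, where 43.1% of all tested sets fell. In ime4 2 fell and 1 rose, where 42% of all sets fell and 44% rose. All 4 were higher in ime4 than in WT in SPO, with a median of 0.77, where 34.1% of all sets were higher. HIS1, the first enzyme of that pathway, fell by 2.49 in WT (limma adjusted p = 2.27e-11) and by 1.49 in ime4 (adjusted p = 2.73e-09), and was 2.10-fold higher in ime4 in SPO (adjusted p = 7.60e-08).

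Of 4 nucleotide kinase genes, 2 fell and 2 rose in WT, near the 43.1% and 46.9% of all sets. ADK2, a mitochondrial adenylate kinase gene, rose 8.14-fold in WT (3.02, adjusted p = 1.33e-11) and was lower in ime4 in SPO, at 42.7% of WT (adjusted p = 5.96e-08).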
